A study of Rattus norvegicus with 12 samples.

Results

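The amino acid and integrated stress response was followed here through 10 genes, Atf4, Ddit3, Ppp1r15a, Trib3, Sesn2, Asns, Psat1, Slc7a5, Slc3a2 and Slc7a1, in lung tissue of wild type male Sprague Dawley rats weighing 250 to 350 g. The members were the probe sets whose gene symbol in the array's annotation was one of these names, which gave 15 of 31042 probe sets and 10 of 14217 genes. Of the 10 genes 7 had 1 probe set, Sesn2 had 2, and Trib3 and Slc7a1 had 3 each, and no filter on low values was applied. The 12 Affymetrix arrays fell into 4 groups of 3. In BD/SEW, a 4 Fr balloon catheter was inflated outside the dura to cause brain death (BD), and SEW-2871 was injected intravenously at 0.1 mg/kg 15 min later. In BD the brain death was induced without the injection, in SEW the same dose was injected without brain death, and sham animals had neither. SEW-2871 is an agonist of S1P1, a receptor of the lipid sphingosine 1-phosphate. The labels do not say whether SEW animals were operated on, when the lungs were taken, or whether replicates were handled together, so p-values measure the spread between these samples.

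In the integrated stress response, kinases that sense missing amino acids, unfolded proteins in the endoplasmic reticulum, double-stranded RNA or lack of heme phosphorylate the translation factor eIF2. General protein synthesis then slows while a few mRNAs, that of the transcription factor ATF4 among them, are translated more. ATF4 protein raises genes that import and make amino acids, and the pathway also switches on its own brake, the phosphatase subunit encoded by Ppp1r15a. Because ATF4 is controlled largely at translation, the level of its mRNA is only an indirect measure of it.

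Promoter windows are shown for the genes that passed a test below, Slc7a5 and Ppp1r15a, and for the members whose window holds the core of the C/EBP-ATF response element through which ATF4 acts, Trib3 and Slc7a1. Each window runs 5′ to 3′ on the gene's strand from 250 bases before to 50 after the start in RefSeq (GRCr8). Capitals mark matches on either strand to that core, TGATGNAA, and to CCACG, the core of the endoplasmic reticulum stress element. No match to the first overlapped a match to the second.
Slc7a5, chr19:66872363-66872662, minus strand: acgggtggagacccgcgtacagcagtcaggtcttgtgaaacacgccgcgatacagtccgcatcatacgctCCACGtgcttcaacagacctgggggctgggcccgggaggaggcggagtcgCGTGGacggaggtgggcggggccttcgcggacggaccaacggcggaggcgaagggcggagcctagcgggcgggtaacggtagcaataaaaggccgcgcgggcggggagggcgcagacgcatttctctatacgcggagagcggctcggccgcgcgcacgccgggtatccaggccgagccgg
Ppp1r15a, chr1:105139547-105139846, minus strand: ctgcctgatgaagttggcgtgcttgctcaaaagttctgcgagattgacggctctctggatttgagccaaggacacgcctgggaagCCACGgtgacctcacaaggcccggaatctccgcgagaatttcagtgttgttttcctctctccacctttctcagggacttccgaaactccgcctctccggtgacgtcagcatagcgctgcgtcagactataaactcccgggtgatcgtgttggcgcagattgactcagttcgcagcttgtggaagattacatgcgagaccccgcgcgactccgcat
Trib3, chr3:161275484-161275783, minus strand: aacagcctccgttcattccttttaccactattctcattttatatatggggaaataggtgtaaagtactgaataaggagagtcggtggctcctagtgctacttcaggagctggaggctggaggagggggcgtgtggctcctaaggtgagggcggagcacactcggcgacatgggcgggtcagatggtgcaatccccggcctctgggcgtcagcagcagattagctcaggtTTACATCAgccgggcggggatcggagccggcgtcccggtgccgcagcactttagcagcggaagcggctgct
Slc7a1, chr12:11664238-11664537, plus strand: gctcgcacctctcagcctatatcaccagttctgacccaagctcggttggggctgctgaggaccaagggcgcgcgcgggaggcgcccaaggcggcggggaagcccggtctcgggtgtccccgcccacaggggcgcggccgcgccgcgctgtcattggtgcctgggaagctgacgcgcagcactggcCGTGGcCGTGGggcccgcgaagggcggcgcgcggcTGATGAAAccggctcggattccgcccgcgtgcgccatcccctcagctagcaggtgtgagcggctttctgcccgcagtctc
All 10 genes had a window, Slc3a2 having 2. The TGATGNAA match began at position -21 from the start in Trib3 and at position -30 in Slc7a1, and none of the other 8 genes had one in its window. Among windows of genes measured on the array 2.24% held TGATGNAA. CCACG was in a window of 9 of the 10 genes, all but Trib3, against 43.4% of windows of measured genes, with no allowance for base composition. These matches are descriptions of letters and no test was made of them.

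Some arrays stood apart in markers of other tissues or in stress genes. Cardiac muscle markers, of which 15 of 16 were measured, averaged 6.21 to 8.05 in BD/SEW, 6.35 and 7.29 in BD replicates 1 and 3, 11.2 in BD replicate 2, 5.95 to 7.5 in SEW and 9.31 to 10.21 in sham. Adipose markers (11 of 12 measured) averaged 9.19 in BD replicate 2 and 8.59 to 9.65 in sham, and 6.67 to 7.42 in the remaining arrays. Airway markers (4 of 4) averaged 12.26 in BD replicate 2 and 12.28 to 12.41 in sham, and 9.43 to 10.99 in the remaining arrays. The airway gap lay in Bpifa1 (13.6 to 14.29 in sham, 6.68 to 8.43 in BD/SEW) and Muc5b (10.66 to 10.86 and 7.97 to 8.49). The airway marker Scgb1a1 was 14.48 to 14.87 in every array, and Foxj1 in BD/SEW (9.58 to 9.68) overlapped sham (9.6 to 10.69). The mean of 6 heat shock genes was 13.37 in SEW replicate 2 and 10.81 to 11.46 in the other 11 arrays. Neutrophil markers (7 of 9 measured) averaged 11.49 to 11.98 in BD/SEW, 10.73 to 11.22 in BD, 9.33 to 10.98 in SEW and 10.02 to 11.15 in sham. Markers of alveolar type 2 cells averaged 12.92 to 13.52 in every array. The median probe set value per array was 7.34 to 7.41. The cardiac means of sham did not overlap those of SEW or BD/SEW. A fit with the cardiac mean as a covariate thus cannot separate group from covariate when these groups are compared with sham. A call lost in that fit decides nothing about its source. The BD cardiac means spanned those of sham only through BD replicate 2, so BD against sham in that fit rests largely on this array. Precision is limited by having 3 arrays a group.

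Only 2 of the 10 genes passed a test in any of the 6 comparisons. Slc7a5, which encodes the LAT1 importer of leucine and other large neutral amino acids, was lower in BD than in sham and lower in SEW than in sham, and its brain-death effect differed with the agonist. Ppp1r15a, which encodes GADD34, the stress-induced subunit that restores eIF2 to its active form, was higher in BD/SEW than in SEW and in sham. Atf4 itself and its amino acid synthesis targets Asns and Psat1 passed in no comparison. In BD against sham, 1 member was lower and 9 did not pass, where 0.591% of all genes passed and 0.38% were lower. Against the same sham arrays, SEW also had 1 member lower and 9 not passing, where 5.84% of all genes passed and 2.43% were lower. BD/SEW against SEW had 1 higher and 9 not passing, where 9.79% passed and 4.75% were higher. BD/SEW against sham had 1 higher and 9 not passing, where 2.87% passed and 1.7% were higher. The interaction was taken as BD/SEW minus SEW, less BD minus sham. It had 1 higher and 9 not passing, where 0.95% of all genes passed and 0.851% were higher. A single call among 10 members is 10%, the least that a call can give, so nothing is read from these shares.

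**Figure D1:**
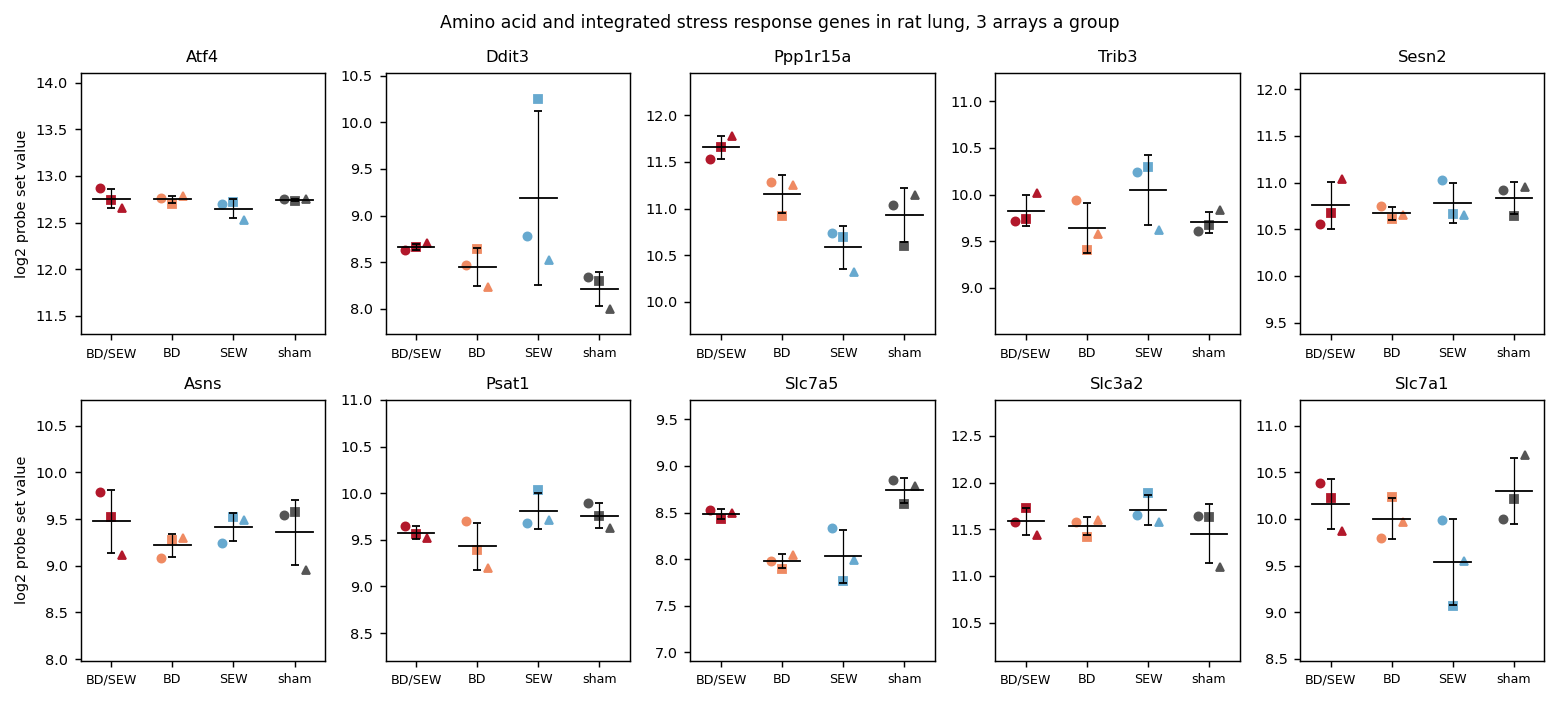
Log2 probe set values of the 10 genes (vertical axis, each panel spanning the same height) in the BD/SEW, BD, SEW and sham groups. Circles, squares and triangles are replicates 1, 2 and 3, horizontal bars are means and error bars are SD (n = 3). The Slc7a5 values of BD (7.9 to 8.05) lie below those of BD/SEW and sham, and Ddit3 has 1 high array, SEW replicate 2, at 10.25.

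In BD lungs Slc7a5 (probe set 1387280_a_at) had values of 7.98, 7.9 and 8.05, against 8.85, 8.59 and 8.78 in sham lungs. The 3 BD arrays were all below the 3 sham arrays, which was so for 7.74% of all genes. Slc7a5 fell by 0.76 ± 0.14 in BD (log2 difference ± SE, n = 3 per group; adjusted p = 0.037), a 1.7-fold difference with a 95% interval of -1.06 to -0.46. In the 6 fits that left out a compared array the difference was -0.84 to -0.71, and it passed in 0 of these 6, with adjusted p between 0.051 and 0.14. Leaving out an array of another group, which enters through the shared spread, ended the call without SEW replicate 3 (adjusted p = 0.059) and without BD/SEW replicate 1, 2 or 3 (adjusted p = 0.061, 0.066 and 0.063). With the mean of the cardiac markers as a covariate it was -0.81 (adjusted p = 0.083).

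In SEW lungs the Slc7a5 values were 8.33, 7.77 and 7.99, again all below those of sham, which was so for 10.6% of all genes. Slc7a5 fell by 0.71 ± 0.14 in SEW (n = 3 per group; adjusted p = 0.017; 95% interval -1.01 to -0.41), a 1.64-fold difference. It passed in 4 of the 6 fits without a compared array (-0.86 to -0.58), the exceptions being those without sham replicate 1 (-0.65, adjusted p = 0.054) and without sham replicate 3 (-0.69, adjusted p = 0.051). With the cardiac covariate the difference was -0.8 (adjusted p = 0.15), and without BD replicate 2, sham replicate 3 and SEW replicate 2 together it was -0.56 (adjusted p = 0.051). Both comparisons share the sham arrays, whose cardiac and adipose means were high, so they are not independent of each other. In whole lung, fewer cells that carry a transcript and less of it per cell cannot be told apart.

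BD/SEW lungs had Slc7a5 values of 8.53, 8.43 and 8.5, which lay above all BD and SEW arrays and below all sham arrays. Arrays not overlapping in the same direction were found for 7.9% of all genes against BD, 13.2% against SEW and 12.2% against sham. The difference from SEW was 0.46 ± 0.14 (95% interval 0.16 to 0.76, adjusted p = 0.06), and it passed without SEW replicate 1 (0.61, adjusted p = 0.012). The difference from BD was 0.51 ± 0.14 (0.21 to 0.81, adjusted p = 0.7) and that from sham was -0.25 ± 0.14 (-0.55 to 0.05, adjusted p = 0.38). The interaction of Slc7a5 was 1.22 ± 0.19 (95% interval 0.79 to 1.65, adjusted p = 0.016). Slc7a5 thus differed by 0.46 between BD/SEW and SEW and by -0.76 between BD and sham. This interaction passed in 9 of the 12 fits that left out an array, with values of 1.09 to 1.37. It did not pass without BD replicate 1 (1.22, adjusted p = 0.054), BD/SEW replicate 1 (1.2, adjusted p = 0.063) or BD/SEW replicate 2 (1.25, adjusted p = 0.057).

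Slc3a2 encodes 4F2hc, the heavy chain that takes LAT1 to the cell surface. Its values were 11.58, 11.73 and 11.44 in BD/SEW, 11.58, 11.42 and 11.6 in BD, 11.65, 11.89 and 11.58 in SEW, and 11.64, 11.63 and 11.09 in sham. All groups overlapped, and the lowest array was sham replicate 3. The differences were 0.08 ± 0.15 in BD against sham (95% interval -0.25 to 0.41) and 0.25 ± 0.15 in SEW against sham (-0.07 to 0.58), with adjusted p of 0.9 and 0.31. The heavy chain gene therefore did not pass in the comparisons where its partner Slc7a5 did, and whether the changes of the genes differ was not tested.

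Slc7a1 encodes CAT-1, an importer of arginine and lysine, and was read by 3 probe sets. By the brightest of them, 1368391_at, its values were 10.39, 10.22 and 9.87 in BD/SEW, 9.8, 10.24 and 9.97 in BD, 9.99, 9.07 and 9.55 in SEW, and 10, 10.21 and 10.69 in sham. The SEW arrays were all below the sham arrays, as in 10.6% of all genes, by 0.01 at the closest, with SEW replicate 2 the lowest of the 12. The difference of SEW from sham was -0.76 ± 0.24 (95% interval -1.29 to -0.23) and did not pass (adjusted p = 0.081). It was -0.53 without SEW replicate 2 (adjusted p = 0.21) and -0.99 without SEW replicate 1, where it passed (adjusted p = 0.048). Without sham replicate 3, SEW replicate 2 and BD replicate 2, the arrays that stood apart, it was -0.33 (adjusted p = 0.34). Sham replicate 3 was put in this set, which was chosen after seeing the data, with the smallest array weight (0.25). It was the highest Slc7a1 array (10.69) and SEW replicate 2 the lowest (9.07), so leaving out both had to shrink the difference.

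The other Slc7a1 probe sets gave the same sign in SEW against sham, in a fit over every probe set. The difference was -0.88 ± 0.22 by 1368392_at (adjusted p = 0.058) and -0.33 ± 0.11 by 1387167_at (adjusted p = 0.11). By 1368392_at the SEW values of 9.58, 8.94 and 9.23 were all below the sham values of 9.79, 9.97 and 10.62. The third, 1387167_at, had group means of 4.68 to 5.01, below the lower quartile of every array (5.56 to 5.66). Its smaller differences are those of a dim probe set whose signal over background was not measured. In BD/SEW against SEW the brightest probe set differed by 0.62 ± 0.24 (adjusted p = 0.14). This was 0.39 without SEW replicate 2 (adjusted p = 0.39), and it passed without SEW replicate 1 (0.85, adjusted p = 0.047) and with array weights (0.6, adjusted p = 0.039). The interaction was 0.92 ± 0.34 (95% interval 0.17 to 1.67, adjusted p = 0.3).

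**Figure D2:**
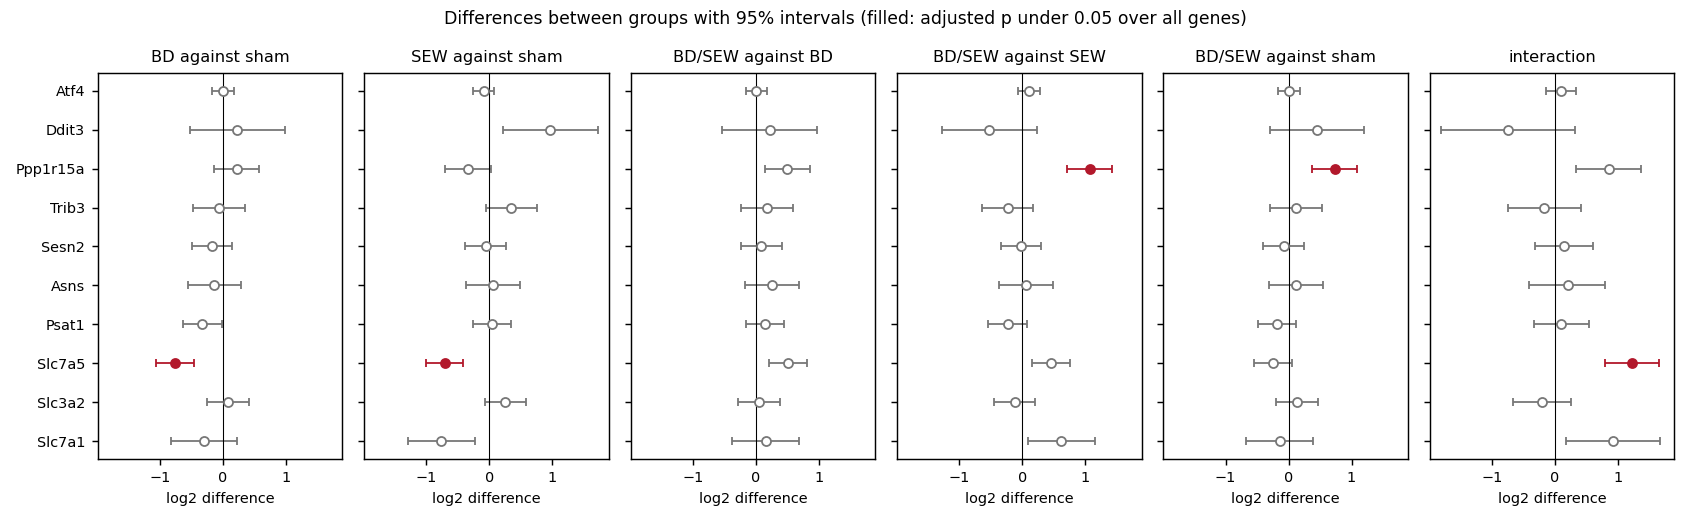
Log2 differences of the 10 genes (horizontal axis) with 95% intervals in each of the 6 comparisons, positive values being higher in the group named first. Filled points passed at an adjusted p under 0.05 over all genes, which are Slc7a5 in BD (-0.76) and in SEW (-0.71), each against sham, and in the interaction (1.22), and Ppp1r15a in BD/SEW against SEW (1.07) and against sham (0.73).

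Ppp1r15a (probe set 1370174_at) had values of 11.53, 11.66 and 11.78 in BD/SEW, against 10.74, 10.7 and 10.32 in SEW. Every BD/SEW array was above every SEW array, which was so for 13.2% of all genes. Ppp1r15a rose by 1.07 ± 0.16 in BD/SEW against SEW (n = 3 per group; adjusted p = 0.002; 95% interval 0.71 to 1.43), a 2.1-fold difference. It passed in 6 of the 6 fits without a compared array (0.94 to 1.15) and in 10 of the 10 other alternatives run. The neutrophil marker means of 11.49 to 11.98 in BD/SEW and 9.33 to 10.98 in SEW moved with this comparison, and their part in the result was not tested.

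Against the sham values of 11.04, 10.6 and 11.15, the BD/SEW arrays were again all higher, which was so for 13.7% of all genes. Ppp1r15a rose by 0.73 ± 0.16 in BD/SEW against sham (n = 3 per group; adjusted p = 0.042; 95% interval 0.37 to 1.09), a 1.65-fold difference. The neutrophil means of BD/SEW were also all above those of sham (10.02 to 11.15), and their part was not tested. This call passed in 1 of the 6 fits without a compared array, that without sham replicate 3 (range 0.56 to 0.84), was lost without BD replicate 1 or 3 (adjusted p = 0.052 and 0.057), and did not pass with the cardiac covariate (0.53, adjusted p = 0.48). In BD the values were 11.29, 10.92 and 11.25, which overlap those of sham, and the difference was 0.22 ± 0.16 (-0.14 to 0.58, adjusted p = 0.7). This difference was 0.06 without sham replicate 2 (adjusted p = 0.93), 0.12 with the cardiac covariate (adjusted p = 0.89) and 0.45 without the 3 arrays that stood apart (adjusted p = 0.21). The interaction of Ppp1r15a was 0.85 ± 0.23 (0.34 to 1.36, adjusted p = 0.14), so the brain-death effect was not shown to differ with the agonist.

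Atf4, the central transcription factor, was among the steadiest of the genes measured. Its values were 12.87, 12.74 and 12.66 in BD/SEW, 12.76, 12.7 and 12.78 in BD, 12.7, 12.72 and 12.53 in SEW, and 12.75, 12.73 and 12.75 in sham. The 12 values spanned 0.34, less than the span of all but 10.5% of genes and less than the median span of 0.65. The difference was 0 ± 0.08 in BD against sham (95% interval -0.17 to 0.17) and 0.01 ± 0.08 in BD/SEW against sham (-0.16 to 0.18), so a change of this mRNA beyond 0.18 in either direction lies outside both intervals. In SEW all 3 arrays lay below the sham arrays, as in 10.6% of all genes, by 0.01 at the closest. The difference was -0.09 ± 0.08 (-0.26 to 0.08, adjusted p = 0.48).

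Ddit3 encodes CHOP, a transcription factor that ATF4 induces and that takes part in cell death under lasting stress. Its values were 8.63, 8.66 and 8.7 in BD/SEW, 8.47, 8.64 and 8.23 in BD, 8.78, 10.25 and 8.52 in SEW, and 8.34, 8.3 and 8 in sham. SEW and BD/SEW arrays were all above sham arrays, as in 16.4% and 13.7% of all genes, while BD arrays overlapped them. The difference was 0.97 ± 0.34 in SEW against sham (95% interval 0.22 to 1.72, adjusted p = 0.11) and 0.45 ± 0.34 in BD/SEW against sham (-0.3 to 1.2, adjusted p = 0.55). Without SEW replicate 2 the first of these was 0.44 (adjusted p = 0.13). The second stayed at 0.45, but SEW replicate 2 enters it through the shared spread. Its adjusted p was 0.091 without that array and 0.085 with the compared arrays only, so it did not pass in either. The difference of BD/SEW from SEW, -0.52 ± 0.34 (adjusted p = 0.4), was 0.01 without that array.

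SEW replicate 2, the array with the high heat shock mean, was the highest of the 12 arrays for 4 members and the lowest for 2. It was highest for Ddit3, Trib3 (10.3), Slc3a2 (11.89) and Psat1 (10.03), and lowest for Slc7a5 (7.77) and Slc7a1 (9.07). Sham replicate 3 was the lowest for Ddit3, Asns and Slc3a2 and the highest for Slc7a1. When arrays were weighted by their fit, the smallest weights were 0.25 for sham replicate 3 and 0.32 for SEW replicate 2. Most listed genes of endoplasmic reticulum stress were also highest in SEW replicate 2, as given below, among them Hspa5 (13.52). The part of the heat shock and endoplasmic reticulum stress differences in the member values was not tested.

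**Figure D3:**
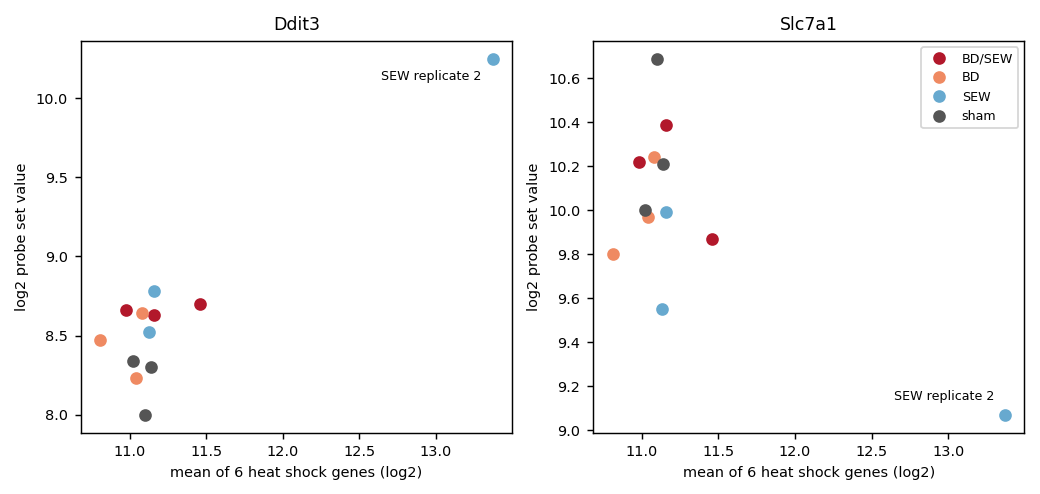
Log2 values of Ddit3 and Slc7a1 (vertical axes) against the mean of 6 heat shock genes (horizontal axis) in each of the 12 arrays, coloured by group. SEW replicate 2 stands alone at a heat shock mean of 13.37, with the highest Ddit3 value (10.25) and the lowest Slc7a1 value (9.07), while the other 11 arrays lie between 10.81 and 11.46.

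Trib3 encodes a pseudokinase that ATF4 and CHOP induce and that restrains their activity. By its brightest probe set the values were 9.72, 9.74 and 10.02 in BD/SEW, 9.94, 9.41 and 9.58 in BD, 10.24, 10.3 and 9.62 in SEW, and 9.61, 9.67 and 9.83 in sham. All 4 groups overlapped, 2 of the SEW arrays being the highest of the 12. The difference was 0.35 ± 0.19 in SEW against sham (95% interval -0.06 to 0.76, adjusted p = 0.27), and 0.08 with the cardiac covariate (adjusted p = 0.91). The 3 probe sets correlated at r of 0.9 to 0.91 over the 12 arrays, a description over arrays that share their groups. They differed in BD/SEW against sham, where 1370694_at gave 0.44 ± 0.19 without overlap (adjusted p = 0.3), in the direction shown by 13.7% of all genes. The others gave 0.17 ± 0.18 by 1370695_s_at and 0.12 ± 0.19 by the brightest. The probe set 1370694_at also gave 0.44 ± 0.19 in BD/SEW against BD, without overlap (adjusted p = 0.99), and in SEW against sham, with overlap (adjusted p = 0.2).

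Sesn2 encodes sestrin 2, a leucine sensor that holds mTORC1 in check and that ATF4 induces. The brighter probe set had values of 10.56, 10.67 and 11.04 in BD/SEW, 10.75, 10.61 and 10.65 in BD, 11.03, 10.66 and 10.65 in SEW, and 10.92, 10.64 and 10.95 in sham. The 4 groups overlapped, and the lowest and the highest of the 12 values were both in BD/SEW. Differences ran from -0.17 ± 0.15 in BD against sham to 0.09 ± 0.15 in BD/SEW against BD. The dimmer probe set, 1396901_at, gave -0.32 ± 0.19 in BD against sham (adjusted p = 0.62) and -0.36 ± 0.19 in BD/SEW against sham (adjusted p = 0.42), and correlated with the brighter at r = 0.56.

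**Figure D4:**
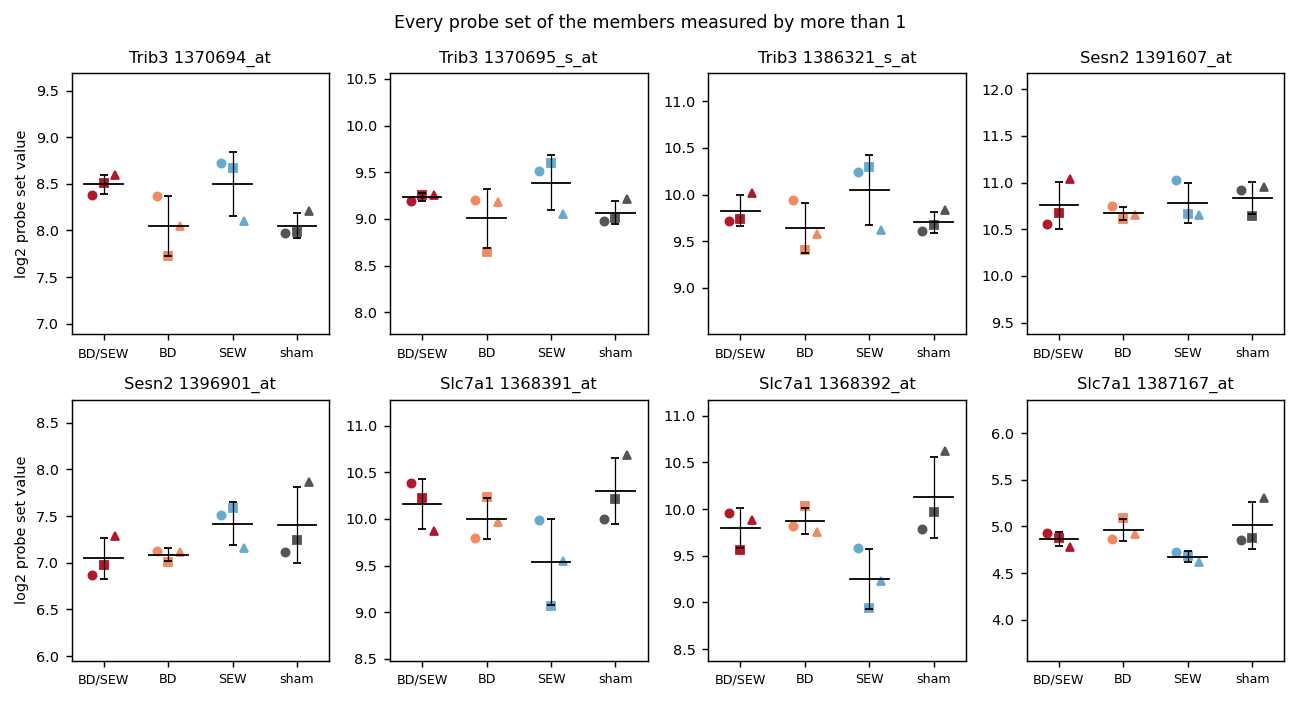
Log2 values of every probe set of Trib3, Sesn2 and Slc7a1 (vertical axes of equal height) in the BD/SEW, BD, SEW and sham groups, with replicates 1, 2 and 3 as circles, squares and triangles, means as bars and SD as error bars (n = 3). The SEW values of all 3 Slc7a1 probe sets lie below their sham values, and the dim probe set 1387167_at lies near 5.

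Asns encodes asparagine synthetase, a classic reporter of amino acid shortage. Its values were 9.79, 9.52 and 9.12 in BD/SEW, 9.08, 9.28 and 9.3 in BD, 9.24, 9.52 and 9.49 in SEW, and 9.54, 9.58 and 8.95 in sham, with all groups overlapping. The difference was -0.14 ± 0.19 in BD against sham (95% interval -0.56 to 0.29, adjusted p = 0.86), 0.06 ± 0.19 in SEW against sham (-0.37 to 0.49) and 0.12 ± 0.19 in BD/SEW against sham (-0.31 to 0.55). Its largest difference among the 5 pairs of groups was 0.26 ± 0.19, in BD/SEW against BD (-0.17 to 0.68, adjusted p = 0.96).

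Psat1 encodes phosphoserine aminotransferase, an enzyme of serine synthesis. It had values of 9.65, 9.56 and 9.52 in BD/SEW, 9.7, 9.39 and 9.2 in BD, 9.68, 10.03 and 9.71 in SEW, and 9.89, 9.76 and 9.63 in sham. The BD/SEW arrays were all below the SEW arrays, as in 18.6% of all genes, while BD overlapped sham. The differences were -0.23 ± 0.14 in BD/SEW against SEW (95% interval -0.54 to 0.08, adjusted p = 0.36) and -0.33 ± 0.14 in BD against sham (-0.64 to -0.02, adjusted p = 0.41), and neither passed.

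In BD/SEW against BD all 10 genes had a value above 0 by their brightest probe set, from 0.01 for Atf4 to 0.51 for Slc7a5, with a median of 0.17. The other probe sets of Slc7a1 (-0.07 and -0.1) and Sesn2 (-0.04) were below 0, and those of Trib3 (0.44 and 0.23) above. Over all genes 52.1% were above 0 and the median was 0.01. By limma 0 of the 10 passed, where 0.0141% of all genes did, and 2 had an unadjusted p under 0.05, against 5.44% of all genes. These were Slc7a5 and Ppp1r15a, the members whose arrays did not overlap by the brightest probe set, in the direction shown by 7.9% of all genes. By the dimmer Trib3 probe set 1370694_at the BD/SEW arrays also lay above the BD arrays, 8.38 against 8.37 at the closest (adjusted p = 0.99). Ppp1r15a differed by 0.5 ± 0.16 (95% interval 0.14 to 0.86, adjusted p = 0.81). The members were not independent of each other, so the common sign is given as a count only.

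The members varied unequally between replicates. Ddit3 had a within-group SD of 0.49, above that of 96.5% of genes, and Slc7a1 had one of 0.34, above 90.1%. By group the Ddit3 SD was 0.93 in SEW, which holds the high replicate 2, but 0.04 in BD/SEW, 0.21 in BD and 0.19 in sham. Slc7a5 (0.16) was at the median of all genes, 0.16, Ppp1r15a had 0.22 and Atf4 0.08. The genes also did not move as a unit over the 12 arrays. Among their 45 pairs Pearson's r had a median of 0.05 and ran from -0.75 to 0.66, a description over arrays that share groups. The median difference of the 10 genes in BD against sham was -0.1, where that of all genes was 0. It was 0 for SEW against sham (all genes 0.02), 0.02 for BD/SEW against SEW (all genes -0.01) and 0.07 for BD/SEW against sham (all genes 0.01).

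Related genes were counted in 8 lists, of which 115 genes were measured. Between BD/SEW and SEW 8 were higher and 11 lower in BD/SEW, 16.5% of the 115 where 9.79% of all genes passed. In SEW against sham 1 was higher and 6 were lower, 6.09%, which is near the 5.84% of all genes. BD/SEW against sham had 2 higher and 5 lower, 6.09% where 2.87% of all genes passed. BD had 3 lower than in sham (2.61%, all genes 0.591%), and the interaction had 3 higher (2.61%, all genes 0.95%). In BD/SEW against BD limma called 0 of the 115, where 0.0141% of all genes were called, and 8 (6.96%) had an unadjusted p under 0.05, as did 5.44% of all genes. The lists were chosen with earlier results of these data known, so these shares cannot show that the lists respond more than other genes.

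The neutrophil means given above were higher in all BD/SEW arrays than in all SEW and all sham arrays, and their part in these counts was not tested. The cardiac and adipose means were high in sham. With the cardiac mean as a covariate, 3 of the 3 calls in BD against sham and 18 of the 19 in BD/SEW against SEW also passed, the exception being Lars1 (-0.38, adjusted p = 0.051). In the same fit 0 of the 7 calls in SEW against sham and 0 of the 7 in BD/SEW against sham passed. Cardiac means of sham did not overlap those of SEW or BD/SEW, so this fit cannot separate group from covariate there. In BD against sham the fit rests largely on BD replicate 2, whose cardiac mean (11.2) was above all sham arrays. BD replicates 1 and 3 (6.35 and 7.29) were below them. In BD/SEW against sham the estimate went from -0.84 to -0.85 for Slc38a2, but from -0.6 to -0.4 for Slc38a1 and from -1.53 to -1.31 for Got1. In SEW against sham that of Bcat1 went from -2.21 to -2.13. Of the 3 calls in the interaction 2 passed with the covariate, and Cebpb did not (1.08, adjusted p = 0.079). When the 3 arrays that stood apart were left out, 3 of the 7 calls in SEW against sham passed, as did 7 of the 7 in BD/SEW against sham and 3 of the 3 in the interaction.

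Among 17 other amino acid transporter genes the clearest differences were those of Slc7a11, Slc38a2 and Slc1a5. Slc7a11 encodes xCT, which imports cystine for glutathione synthesis and, like LAT1, pairs with the Slc3a2 product. Its values were 8.08, 8.86 and 8.58 in BD/SEW and 6.58, 6.5 and 6.68 in SEW, with 7.57, 7.78 and 7.78 in BD and 8.04, 7.81 and 7.7 in sham. SEW was the low group. Slc7a11 rose by 1.92 ± 0.18 in BD/SEW against SEW (adjusted p = 0.0001) and fell by 1.26 ± 0.18 in SEW against sham (adjusted p = 0.0044), each called in 6 of 6 fits without a compared array. With the cardiac covariate the fall in SEW was -1.1 and did not pass (adjusted p = 0.12). Its interaction was 2.06 ± 0.25 (adjusted p = 0.0047), called in 12 of 12 such fits.

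Slc38a2 encodes SNAT2, an importer of small neutral amino acids that amino acid shortage induces. It had values of 11.16, 11.29 and 11.38 in BD/SEW and 11.43, 11.28 and 11.27 in BD, against 11.92, 12.25 and 11.95 in SEW and 12.16, 12.05 and 12.13 in sham, so that the groups with brain death were low. Slc38a2 fell by 0.79 ± 0.1 in BD against sham (adjusted p = 0.0049), by 0.76 ± 0.1 in BD/SEW against SEW (adjusted p = 0.00095) and by 0.84 ± 0.1 in BD/SEW against sham (adjusted p = 0.0029), each called in 6 of 6 fits without a compared array. The last of these did not pass with the cardiac covariate (-0.85, adjusted p = 0.057). Slc1a5, a glutamine importer, rose by 0.61 ± 0.12 in BD/SEW against SEW (adjusted p = 0.0062, called in 6 of 6 fits) and fell by 0.46 ± 0.12 in SEW against sham (adjusted p = 0.043, called in 0 of 6; adjusted p = 0.28 with the cardiac covariate). Slc7a6 fell by 0.73 ± 0.18 in BD/SEW against SEW and Slc38a1 by 0.6 ± 0.14 in BD/SEW against sham, called in 1 and 0 of the 6 fits. With the cardiac covariate Slc38a1 was -0.4 (adjusted p = 0.53).

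**Figure D5:**
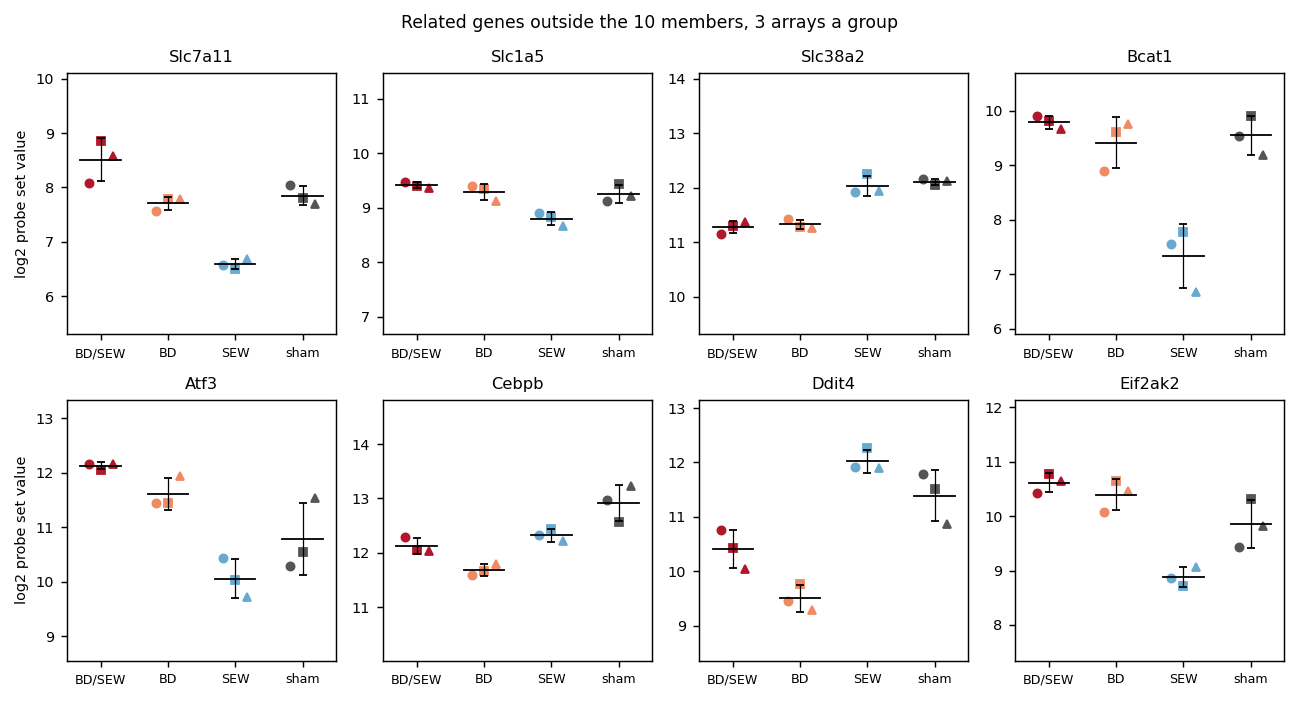
Log2 values of 8 genes of related lists (vertical axes of equal height) in the BD/SEW, BD, SEW and sham groups, with replicates 1, 2 and 3 as circles, squares and triangles, means as bars and SD as error bars (n = 3). Slc7a11 and Bcat1 are lowest in SEW, while Slc38a2 and Ddit4 are lower in both groups with brain death than in SEW and sham.

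Among 12 bZIP factors and co-regulators, Atf3, a stress factor that ATF4 and other pathways induce, had values of 12.17, 12.06 and 12.17 in BD/SEW, 11.45, 11.44 and 11.95 in BD, 10.43, 10.03 and 9.71 in SEW and 10.29, 10.54 and 11.53 in sham. The BD/SEW arrays were the highest of the 12, as they were for the neutrophil markers, whose part was not tested. Atf3 rose by 2.08 ± 0.28 in BD/SEW against SEW (adjusted p = 0.001, called in 6 of 6 fits without a compared array). It rose by 1.35 ± 0.28 in BD/SEW against sham (adjusted p = 0.031), which was called in 1 of 6 such fits and not with the cardiac covariate (1.08, adjusted p = 0.41). In BD against sham it differed by 0.83 ± 0.28 without passing (adjusted p = 0.27). Cebpb, a C/EBP factor that pairs with ATF4, fell by 1.24 ± 0.15 in BD against sham (adjusted p = 0.0039, called in 6 of 6 fits). It fell by 0.6 ± 0.15 in SEW against sham (adjusted p = 0.04, called in 1 of 6) and by 0.8 ± 0.15 in BD/SEW against sham (adjusted p = 0.019, called in 3 of 6). Its interaction was 1.04 ± 0.21 (adjusted p = 0.042), called in 2 of 12 fits. With the cardiac covariate only the first of these 4 Cebpb calls passed (-1.27, adjusted p = 0.015), the adjusted p being 0.25 for SEW and 0.17 for BD/SEW against sham. Nfe2l2, the NRF2 regulator of antioxidant genes, rose by 0.49 ± 0.11 in BD/SEW against SEW (called in 2 of 6).

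Of 14 other ATF4 target genes, Ddit4, which encodes the mTORC1 inhibitor REDD1, was the only one that passed in any comparison. Its values were 10.76, 10.42 and 10.05 in BD/SEW and 11.91, 12.26 and 11.89 in SEW, with 9.45, 9.77 and 9.28 in BD and 11.78, 11.51 and 10.87 in sham. Ddit4 fell by 1.61 ± 0.24 in BD/SEW against SEW (adjusted p = 0.0017) and by 1.89 ± 0.24 in BD against sham (adjusted p = 0.0043), each called in 6 of 6 fits without a compared array. Chac1, a glutathione-degrading enzyme gene that responds strongly to ATF4 in cultured cells, had means of 7.88 ± 0.21 in BD/SEW, 7.88 ± 0.16 in BD, 7.51 ± 0.28 in SEW and 7.81 ± 0.05 in sham (SD, n = 3). It passed in no comparison, the largest difference being 0.37 ± 0.16 in BD/SEW against SEW (adjusted p = 0.17).

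Among 11 genes of serine, glycine, one-carbon and proline synthesis and related transaminases, Bcat1, a branched-chain amino acid transaminase, had values of 9.9, 9.81 and 9.66 in BD/SEW and 7.56, 7.77 and 6.67 in SEW. Bcat1 rose by 2.46 ± 0.3 in BD/SEW against SEW (adjusted p = 0.00053) and fell by 2.21 ± 0.3 in SEW against sham (adjusted p = 0.0039), called in 6 of 6 fits without a compared array in both. With the cardiac covariate the second was -2.13 (adjusted p = 0.096). Its interaction was 2.59 ± 0.42 (adjusted p = 0.018), called in 10 of 12 fits. Got1, a cytosolic aspartate aminotransferase, fell by 1.62 ± 0.3 in BD/SEW against SEW (called in 6 of 6) and by 1.53 ± 0.3 in BD/SEW against sham (called in 1 of 6; -1.31 and adjusted p = 0.33 with the cardiac covariate). Mthfd2, a mitochondrial folate enzyme, fell by 0.9 ± 0.17 in SEW against sham (adjusted p = 0.016, called in 6 of 6) and was -0.76 with the cardiac covariate (adjusted p = 0.24). Mthfd1l fell by 0.68 ± 0.19 in BD/SEW against SEW (called in 1 of 6), and Shmt1 rose by 0.71 ± 0.14 in BD/SEW against sham (called in 3 of 6; adjusted p = 0.22 with the cardiac covariate). Phgdh, which makes the substrate of the Psat1 enzyme, passed in no comparison, with means of 7.03 ± 0.18 in BD/SEW, 7.14 ± 0.49 in BD, 6.92 ± 0.26 in SEW and 7.43 ± 0.25 in sham (SD, n = 3).

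Upstream, among 14 genes of eIF2 kinases, eIF2B and phosphatase subunits, Eif2ak2 encodes PKR, the kinase that senses double-stranded RNA and that interferon induces. Its values were 10.43, 10.77 and 10.64 in BD/SEW and 8.86, 8.71 and 9.07 in SEW. Eif2ak2 rose by 1.73 ± 0.21 in BD/SEW against SEW (adjusted p = 0.00055, called in 6 of 6 fits without a compared array). It fell by 0.98 ± 0.21 in SEW against sham (adjusted p = 0.025), called in 2 of 6 such fits and not with the cardiac covariate (-0.73, adjusted p = 0.33). In BD/SEW against SEW the eIF2B subunit genes Eif2b5 and Eif2b4 fell by 0.48 ± 0.12 and fell by 0.37 ± 0.1, and Eif2ak3, which encodes the endoplasmic reticulum kinase PERK, fell by 0.39 ± 0.1. These were called in 3, 0 and 1 of the 6 fits. Eif2b2 rose by 0.44 ± 0.11 in SEW against sham (called in 0 of 6; adjusted p = 0.31 with the cardiac covariate).

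Of 19 cytosolic aminoacyl-tRNA synthetase genes, many of them ATF4 targets, 1 rose and 1 fell in BD/SEW against SEW, and no other comparison had a call. Wars1, whose mRNA interferon also induces, rose by 0.86 ± 0.17 (adjusted p = 0.007, called in 6 of 6 fits without a compared array), and Lars1 fell by 0.37 ± 0.1 (called in 0 of 6). The other synthetase genes did not pass, and the list median was -0.19 in that comparison, against -0.01 for all genes. Of 14 genes of the ATF6 and XBP1 branches of endoplasmic reticulum stress, 1 passed, Herpud1, a gene of protein degradation there, which fell by 0.65 ± 0.17 in BD/SEW against SEW (called in 1 of 6). SEW replicate 2 was the highest array for each of these 14 genes except Atf6 and Edem1. Hspa5 was 13.52 in that array and at most 12.74 elsewhere, Creld2 10.98 and at most 9.78, and Manf 12.24 and at most 11.37. Of 14 genes of amino acid sensing by mTORC1, Sesn1, a relative of Sesn2, fell by 1.09 ± 0.22 in BD/SEW against SEW (adjusted p = 0.0094, called in 6 of 6). Rragd rose by 0.5 ± 0.13 there (called in 0 of 6), and Castor2 fell by 0.82 ± 0.18 in BD/SEW against sham (called in 1 of 6; -0.71 and adjusted p = 0.41 with the cardiac covariate).

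The genes whose values most resembled those of a member over the 12 arrays were found by Pearson correlation among all other genes. This is a description with no test, since the arrays share groups and normalization. Picking the highest r among so many genes with only 12 arrays gives large values by itself, so these genes are not shown to be tied to the member. For Atf4 they were Trim46, Myc and Mafk (r = 0.86 each). For Asns they were Cd200r1 (r = 0.91), Prxl2b (0.85) and Itgb1 (0.84). For Ddit3 they were Cdk2ap2 (0.96), Xpo1 (0.95) and St13 (0.95), with Spearman's rho of 0.73, 0.66 and 0.56. For Trib3 they were Klra5 (0.86), Apoc1 (0.85) and Samd10 (0.84). For the members that passed a test, chosen for this after their values were seen, they were Rnf138 (0.9), Cdca2 (0.88) and Plk1 (0.86) for Slc7a5, and Kbtbd2 (0.94), Inhba (0.93) and Gpsm3 (0.93) for Ppp1r15a.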

How the data were processed

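The authors deposited log2 values, 1 per probe set and array, with 2 decimals. Per the submitters' processing notes the tools were affy, RMA and MAS5, with neither version nor role given. At no rank did the sorted values of 2 arrays lie more than 0.22 apart. Raw array files were not used here. Gene symbols came from GEO's platform annotation (20826 probe sets with 1 symbol, 436 with several, 9780 with none). Each gene was read by its brightest probe set over all arrays. Group means were fitted over all 12 arrays with limma 3.58.1 in R 4.3.3, with variances moderated on a mean trend, two-sided tests and Benjamini-Hochberg adjustment over 14217 genes. A gene was called, or passed, at an adjusted p under 0.05. The fit was tested on simulated data. Related genes were named as up to 3 called per list and comparison, smallest p first, with Atf3, Chac1, Phgdh and Wars1. Eif2b4 and Slc7a6 were added after their values were seen. Members and lists were chosen with earlier results of these data known. Alternatives covered the arrays, the block, array weights, moderation, normalization, probe sets, dim genes, threshold and a cardiac covariate. Same-numbered arrays of 2 groups had residual correlations of -0.19 to 0.38, and the numbers were not taken as pairs.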

Additional observations from a re-analysis of the deposited data

Results flagged for a closer look

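The brain-death effect differed with the agonist, by the interaction term of the fit, for Slc7a5 (1.22 ± 0.19, adjusted p = 0.016). The same term passed for 3 related genes, Slc7a11 (2.06 ± 0.25, adjusted p = 0.0047), Bcat1 (2.59 ± 0.42, adjusted p = 0.018) and Cebpb (1.04 ± 0.21, adjusted p = 0.042). Of the 12 fits that left out an array, the term passed in 9 for Slc7a5, 12 for Slc7a11, 10 for Bcat1 and 2 for Cebpb. The Cebpb term alone did not pass with the cardiac covariate (1.08, adjusted p = 0.079). Slc7a5 averaged 7.98 in BD and 8.03 in SEW, both below its means of 8.49 in BD/SEW and 8.74 in sham. The mean of Cebpb was 11.69 in BD, and those of Slc7a11 and Bcat1 in SEW were 6.59 and 7.33, each the lowest of that gene's 4 groups. The labels do not say whether SEW animals were operated on, and the SEW group enters each of these terms.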

How the results depend on the processing

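The count of members called in BD against sham, 1, was 0 at an adjusted p under 0.01, with the compared arrays only and with the cardiac covariate. In SEW against sham the count of 1 was 0 under these 3 settings and without sham replicate 3, SEW replicate 2 and BD replicate 2 together, an alternative chosen after seeing the data. In BD/SEW against SEW the count of 1 was 2 with the replicate block, 3 with array weights and 2 without the mean trend. In BD/SEW against sham the count of 1 was 0 at an adjusted p under 0.01, after quantile normalization, over every probe set and with the cardiac covariate, and in the interaction it was 0 at an adjusted p under 0.01. With 1 array left out the counts ran from 0 to 1 in BD against sham, 0 to 2 in SEW against sham, 1 to 3 in BD/SEW against SEW, 0 to 1 in BD/SEW against sham and 0 to 1 in the interaction, and stayed at 0 in BD/SEW against BD. With the replicate block the call gained was Slc7a5 in BD/SEW against SEW (0.46, adjusted p = 0.035), and no other call changed. Same-numbered arrays had residual correlations over 0.1 in 8 of 18 pairs, which does not settle whether same-numbered arrays were handled together. Of 1310 values of single members under an alternative, 30 lost and 7 gained a call, 0 called values changed sign and 64 values called in neither did. Signal over background was not measured, which limits what dim probe sets show. The cause of these differences was not tested.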
